A study of Mus musculus with 10 samples.

Results

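First-exon peaks were the m6A peaks that the deposited lists place inside exon 1 of a transcript with further exons, outside its untranslated regions. The rule took every peak listed as Exon and as exon 1 of more than 1 exon, whatever its value, and it found 516 such peaks among the 13965 peaks of 4 lists, or 3.69%. They lay in 290 genes. DMSO Pre held 104 first-exon peaks of 2824, DMSO MCE 200 of 5128, DMSO Diff 92 of 2944 and rhein MCE 120 of 3069.

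All samples came from 3T3-L1, a line of mouse fibroblasts that a hormone cocktail turns into fat cells. DMSO Pre were preadipocytes, DMSO MCE cells were in mitotic clonal expansion, the round of divisions that follows induction, and DMSO Diff cells were labelled as mature adipocytes, all with the solvent only. Rhein cells were induced in the same way and received 20 μM rhein, a plant anthraquinone studied as an inhibitor of the m6A eraser FTO, from day 0 to day 3. Each condition had 1 immunoprecipitated and 1 input library from this single line, so no replicate spread could be measured, no p-value is given, and the 95% Wilson intervals below cover counting error over peaks only.

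N6-methyladenosine (m6A) is a methyl mark that the METTL3-METTL14 complex writes on adenosines of messenger and long noncoding RNA, mostly within the DRACH consensus, of which GGAC is a common core. Along messenger RNA the mark is known to gather near stop codons and in long internal exons, and the exon junction complex keeps it away from short exons between splice sites. First exons hold the cap, often the start codon, and the first coding bases, and in some genes most of the coding sequence.

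The list labelled rhein Diff also held 120 first-exon peaks, every one with the same start and end as in rhein MCE. The scores differed by a median of 0.00519. The Serbp1 peak differed most, with a score of 30.9 under the MCE label and 71.5 under the Diff label. The 2 rhein lists were therefore counted as 1, and the data do not tell which stage that list comes from. Peaks were present for 2 of the 10 fat cell and preadipocyte marker genes looked for, Pdgfra with 1 to 5 peaks per list and Ly6a with 1 peak each in the MCE and Diff lists of DMSO. None of the markers had a first-exon peak, and the lists give no RNA level, so the labels could not be checked further.

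Peaks at the same place in several lists and peaks of high score carry most of what follows, and their bases are shown here. Capitals mark the GGAC at the centre of windows of 40 bases, read 5′ to 3′ on the strand of the transcript from the GENCODE M21 transcripts of GRCm38 (mm10). Klf9 (chr19:23141940-23141979, plus strand), Ppp1r9b (chr11:94992684-94992723, plus), Mepce (chr5:137784573-137784612, minus) and Nom1 (chr5:29435552-29435591, plus) had a first-exon peak over these bases in all 4 lists, Rbm15 (chr3:107331194-107331233, minus) in DMSO Pre and rhein MCE, and Alkbh5 (chr11:60538568-60538607, plus) in DMSO MCE and rhein MCE. Other copies of GGAC in the windows of Ppp1r9b, Mepce, Nom1 and Rbm15 are left in lower case. Each window lies in coding sequence, and the GGAC in capitals began at base 204 of the coding sequence in Klf9, 1155 in Ppp1r9b, 1469 in Mepce, 893 in Nom1, 1866 in Rbm15 and 164 in Alkbh5, counted from 1 at the A of the start codon.
Klf9: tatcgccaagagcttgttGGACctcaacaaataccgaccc
Ppp1r9b: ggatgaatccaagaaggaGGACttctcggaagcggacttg
Mepce: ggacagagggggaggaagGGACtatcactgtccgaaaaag
Nom1: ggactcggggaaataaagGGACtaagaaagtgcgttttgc
Rbm15: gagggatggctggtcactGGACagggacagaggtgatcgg
Alkbh5: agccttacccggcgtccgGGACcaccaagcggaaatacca

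The windows above were centred on GGAC by choice, so they are no comparison for the peaks of highest score. The whole exonic sequences of 4 of these follow, and GGAC occurs in none. They are the coding peaks of Pde10a (chr17:8527026-8527100, plus strand, 64.0% G or C) and Ybx1 (chr4:119294274-119294323, minus, 82.0%), and the noncoding peaks of Otx2os1 (chr14:48669313-48669387, plus, 53.3%) and 4930488L21Rik (chr8:93810209-93810283, minus, 84.0%).
Pde10a: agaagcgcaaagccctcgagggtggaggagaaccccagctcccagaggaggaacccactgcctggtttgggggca
Ybx1: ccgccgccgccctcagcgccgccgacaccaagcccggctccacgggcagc
Otx2os1: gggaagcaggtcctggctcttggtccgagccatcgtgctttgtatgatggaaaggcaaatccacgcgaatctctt
4930488L21Rik: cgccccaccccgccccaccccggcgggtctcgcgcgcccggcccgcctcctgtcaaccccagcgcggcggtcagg

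First-exon peaks were a small and similar share of the peaks listed as Exon in the 4 lists. The share was 7.56% (6.28 to 9.08) of 1376 Exon peaks for DMSO Pre, 8.71% (7.62 to 9.93) of 2297 for DMSO MCE, 6.52% (5.34 to 7.93) of 1412 for DMSO Diff and 8.74% (7.36 to 10.3) of 1373 for rhein MCE. DMSO MCE held the most first-exon peaks and genes, 200 in 165 genes, and it was also the longest list. DMSO Pre had 86 such genes, DMSO Diff 79 and rhein MCE 102. The intervals of the 4 shares overlap.

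Most first-exon peaks were listed on coding transcripts. Of the 516, 345 in 183 genes lay on a coding transcript and 56 in 41 genes on a noncoding isoform of a coding gene, such as a retained intron of the chromatin remodeller Chd3. A further 88 lay on 51 noncoding genes, and 27 were listed on a transcript of the other strand. The coding share was 64.4% (54.9 to 73.0) for DMSO Pre, 72.0% (65.4 to 77.8) for DMSO MCE, 54.4% (44.2 to 64.2) for DMSO Diff and 70.0% (61.3 to 77.5) for rhein MCE. DMSO Diff thus had the lowest coding share, and its interval did not overlap that of DMSO MCE. Of these 27 peaks, 9 were listed under a coding gene and 13 under an antisense gene, in each case on the strand opposite to the peak. Among all first-exon peaks, 2 had no annotated gene on their own strand.

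The peak score is the only value per peak in the lists. Although its header names a log2 fold change, its lowest value in each list corresponds to an adjusted p-value of 0.0500 to 0.0549 when read as minus log2 of an adjusted p, and it is used here to order peaks within a list. First-exon peaks had a median score of 7.62 for DMSO Pre, 7.40 for DMSO MCE, 8.32 for DMSO Diff and 9.74 for rhein MCE. The medians over all peaks of these lists were 7.82, 7.18, 8.27 and 7.96. In the DMSO lists first-exon peaks were therefore placed near the middle of the list, and in rhein MCE they stood above it, with a median place 32.0% of the way down the list. A score depends on the depth of the pair of libraries, which the lists do not give, so a higher score in another list is not read as more m6A.

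Noncoding RNAs supplied several of the highest scores. Otx2os1, an RNA transcribed opposite the homeobox gene Otx2, had the same 75-base peak in all lists, with scores of 40.1 for DMSO Pre, 77.1 for DMSO MCE, 72.4 for DMSO Diff and 68.9 for rhein MCE. It was among the 5 first-exon peaks of highest score in every list. 4930488L21Rik, a noncoding gene, had a score of 675 for DMSO Diff, the highest of that list, and no overlapping first-exon peak elsewhere. 8030451A03Rik had a score of 49.7 for DMSO Pre and 11.4 at the same span for rhein MCE. Gm32647 had 57.7 in DMSO Diff and 9.99 in rhein MCE, where it ended at the same base.

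Other noncoding members were known long RNAs. Tug1, a nuclear long noncoding RNA, had 11 first-exon peaks over the 4 lists in an exon of 980 bases, apart from 1 on an exon of 143 bases, and its highest score in each list was 30.8 for DMSO Pre, 11.0 for DMSO MCE, 8.54 for DMSO Diff and 9.89 for rhein MCE. Gas5, the host gene of small nucleolar RNAs that accumulates in growth-arrested cells, had a peak of score 30.6 in DMSO Pre only. Snhg1, another such host gene, had a score of 18.6 in DMSO Diff. Gm17215 had 32.7 for DMSO Pre and 6.59 and 6.48 for DMSO Diff and rhein MCE, and Gm17036 had 29.1 for DMSO MCE. Gm17215 spans about the same long interval with introns in its 3 lists, and only 175 or 125 of its bases are exonic.

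Coding genes with first-exon peaks in all 4 lists had mostly moderate scores. Klf9, a Krüppel-like transcription factor, had scores of 11.0, 8.70, 21.4 and 9.41 in DMSO Pre, DMSO MCE, DMSO Diff and rhein MCE, highest in DMSO Diff. Mepce, which caps the 7SK small nuclear RNA, had 27.1, 10.1, 16.4 and 4.67 for the same stretch, highest in DMSO Pre. A further Mepce peak of rhein MCE, 463 bases past the start codon, had 9.99. Ppp1r9b, a scaffold that targets protein phosphatase 1, had 5.69, 24.9, 7.54 and 11.8, highest in DMSO MCE. The stretch of bases was nearly the same each time, and the list of the highest score differed from gene to gene.

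Tsc22d2, of the TSC22 domain family, had scores of 4.47, 15.7, 5.02 and 8.87 in the same order of lists, and Nom1, a nucleolar protein, had 5.21, 9.15, 4.57 and 8.18. In both the score was lowest in DMSO Pre or DMSO Diff and highest in DMSO MCE. Glce, an enzyme of heparan sulfate synthesis, varied little, with 9.37, 8.03, 9.92 and 7.80. Scaf11, a splicing-related protein, had its highest scores at 8.54, 13.6, 22.5 and 6.93, and Togaram1, a microtubule regulator of cilia, at 7.99, 7.80, 9.16 and 6.99.

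Loxl1, a lysyl oxidase that crosslinks elastin, had 10 first-exon peaks over the 4 lists in an exon of 1501 bases. Its highest score was 8.20 for DMSO Pre, 20.4 for DMSO MCE, 7.84 for DMSO Diff and 31.6 for rhein MCE, taken over 2, 3, 1 and 4 peaks. The values of DMSO MCE and rhein MCE were the higher ones, but the stage of the rhein list is not certain. Arhgef17, a guanine nucleotide exchange factor, had 8 peaks in an exon of 3539 bases, with scores between 5.32 and 11.3. Some of them overlapped between lists and others did not, and they lay from 139 to 2726 bases past the start codon.

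Some coding genes stood high in rhein MCE. Pde10a, a phosphodiesterase of cyclic nucleotides, had the same 75-base span in 3 lists, with scores of 84.1 for DMSO MCE, 87.1 for DMSO Diff and 139.5 for rhein MCE, and no first-exon peak for DMSO Pre. Ybx1, a cold shock domain protein that binds RNA, had 10.0 in DMSO MCE and 68.3 in rhein MCE. Trim28, a corepressor of transcription, had 10.8 and 51.4. Yy1, a zinc finger transcription factor, had 7.84 for DMSO Pre and 4.81 for DMSO Diff, where the span ran past exon 1, and 42.4 for rhein MCE, where it stayed in exon 1. Pabpn1, the nuclear poly(A) binding protein, had 7.75, 11.9 and 31.0 in DMSO Pre, DMSO MCE and rhein MCE. Not all followed that order. Lamc1, a laminin chain of basement membranes, had 28.4 for DMSO Pre, 6.07 for DMSO MCE and at most 13.8 for rhein MCE. The peaks of DMSO Pre and DMSO MCE shared no base, and that of rhein MCE overlapped both. Vim, the intermediate filament vimentin, had 18.9 for DMSO Pre and 28.4 for DMSO Diff only.

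**Figure D1:**
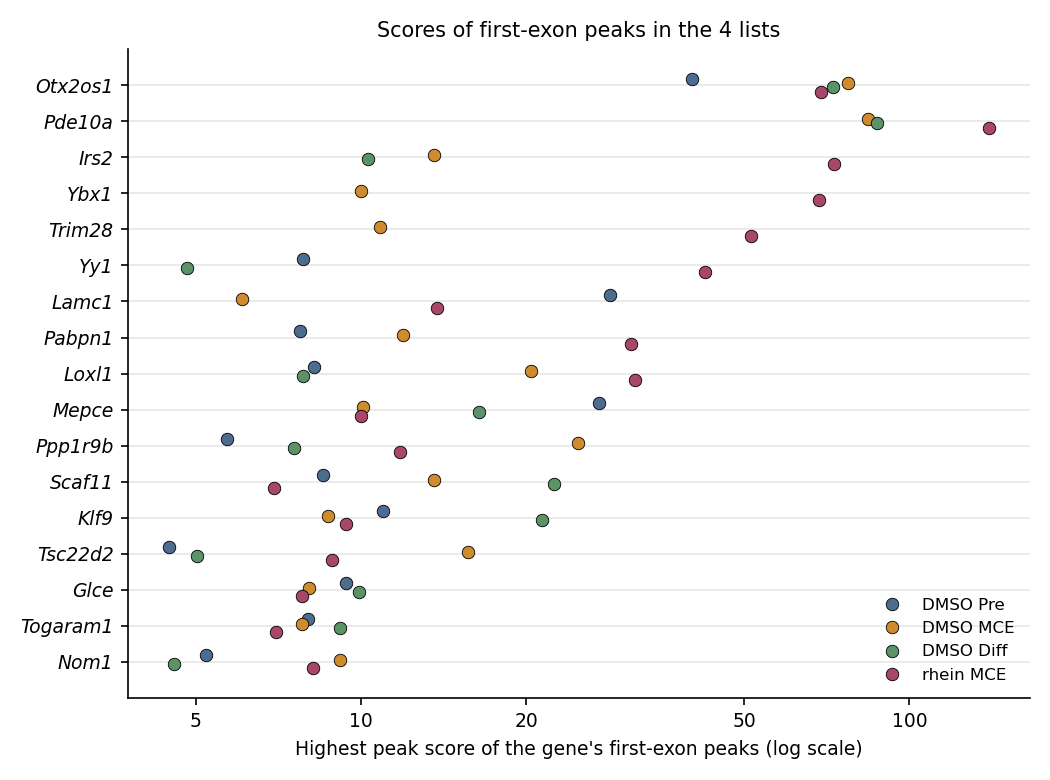
Highest score of the first-exon peaks of 17 named genes in each list, on a log scale, with a point per list and no point where a list has no such peak. Otx2os1 lies between 40.1 and 77.1 in all 4 lists, and Irs2, Ybx1, Trim28 and Yy1 have their highest score in rhein MCE.

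The 2 main insulin receptor substrates, the docking proteins that pass on the insulin signal, both had first-exon peaks, and both have a first exon that holds nearly all of the coding sequence. Irs1 had a peak of score 9.56 in DMSO Pre only, 3508 bases past the start codon, in an exon of 4640 bases. Irs2 had 8 first-exon peaks for DMSO MCE, 1 for DMSO Diff and 6 for rhein MCE, and none for DMSO Pre. Its exon 1 is 3989 bases long. In DMSO MCE the scores ran from 5.34 to 13.6. In rhein MCE 5 of the 6 had scores from 5.03 to 11.7, and the sixth, 1182 bases past the start codon, had 72.8. The overlapping peak of DMSO MCE had 7.94. In DMSO MCE, DMSO Diff and rhein MCE 1 Irs2 peak each was listed under the antisense gene 9530052E02Rik, and DMSO MCE had a peak on each strand there.

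Among genes of 7 lists for adipogenesis, signalling and the m6A machinery, 72 had some peak and 6 of these a first-exon peak (8.33%, 3.88 to 17.0), near the 7.0% of all 4112 genes with a peak. Of 18 genes of the m6A machinery, 12 had some peak and 2 a first-exon peak: Alkbh5, an m6A eraser, and Rbm15, a subunit that guides the methyltransferase. Alkbh5 had scores of 9.65 and 9.26 at 2 places for DMSO MCE and 15.7 for rhein MCE, and Rbm15 had 7.56 for DMSO Pre, 7.45 and 6.68 for DMSO MCE, and 9.13 and 4.65 for rhein MCE. Of 27 genes of the Wnt, Notch, hedgehog and Hippo pathways, 17 had some peak and 1 a first-exon peak, Dvl1, which relays the Wnt signal, with 4.62 in DMSO Pre. Of 15 TGF-beta and BMP genes, 8 had some peak and 1 a first-exon peak, Smad7, the inhibitory Smad, with 8.47 in DMSO MCE. Irs1 and Irs2 were the 2 of 16 insulin and mTOR genes, of which 10 had some peak. None was found among 20 immediate-early genes, 15 growth factor feedback genes and 21 adipogenesis genes, of which 12, 8 and 5 had a peak elsewhere.

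Coding genes with first-exon peaks were sorted into 11 classes by words in their names. Among 181 named genes of the 4 lists, 15 were transcription factors (8.29%, 5.09 to 13.2), such as Yy1, Klf9, Nr2f1 and Nr2f2, against 7.24% of 3467 genes with any peak. RNA-binding and splicing proteins made up 11 (6.08%, 3.43 to 10.6), such as Hnrnpu, Hnrnpul2, Pabpn1, Pabpc1 and Rbm15, against 3.98%. Kinases and phosphatases made up 14 (7.73%, 4.66 to 12.6), such as Wnk1, Cdk12 and Mapk3, against 6.40%. Adhesion and membrane proteins made up 8 (4.42%, 2.26 to 8.48), among them Fat4 and the protocadherins Pcdh7, Pcdh17, Pcdh18 and Pcdh19, against 2.71%. Over the 4 lists together the interval held the share of all genes with a peak in all 11 classes, while within a list it lay above it in 5 cases. In DMSO Pre these were RNA-binding proteins, with 6 of 51 genes (11.8%, 5.51 to 23.4, against 3.85%), adhesion and membrane proteins, with 4 (7.84%, 3.09 to 18.5, against 2.68%), and matrix proteins, with 4 (against 2.89%), namely Adamts1, Adamts5, Col5a2 and Lamc1. In rhein MCE it was RNA-binding proteins, with 7 of 68 (10.3%, 5.08 to 19.8, against 4.73%), and in DMSO Diff cytoskeleton proteins, with 4 of 41 (9.76%, 3.86 to 22.6, against 3.47%). Both RNA-binding cases include Hnrnpu, Hnrnpul2, Pabpn1 and Rbm15. The intervals make no allowance for looking at 11 classes in each of 4 lists. Such words place genes only roughly, since some names hold no word for what the protein does.

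Protocadherins and Fat4 are cadherin-type adhesion proteins with a long coding first exon. Pcdh7 had 5 peaks for DMSO Pre, 2 for DMSO MCE, 1 for DMSO Diff and none for rhein MCE, with scores from 4.89 to 7.51 in an exon of 4312 bases. Pcdh18 had peaks of 6.87 and 18.1 and Fat4 a peak of 7.56, all in DMSO Pre. Pcdh19 had 4.53 for DMSO Pre and 4.88 for DMSO MCE at places more than 1 kb apart, and Pcdh17 had 8.75 for DMSO MCE. No protocadherin had a first-exon peak in rhein MCE.

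Genes with coding first-exon peaks had long first exons. The median length, with 1 value per gene, was 987 bases (quartiles 571.5 to 2208.5) over 52 genes for DMSO Pre, 698 (387.5 to 1377) over 115 for DMSO MCE, 660 (389 to 1239) over 43 for DMSO Diff and 645.5 (393 to 1141) over 70 for rhein MCE. The transcripts of internal-exon peaks had medians of 212.5 to 228.5 bases in the 4 lists and those of last-exon peaks 225.5 to 254, both near the median of 211 over 20439 coding genes of the annotation. A peak that reaches the 5′ untranslated region is listed there and not as Exon, so part of this length is set by the rule: exon 1 had to have room for a peak past the start codon.

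The coding part of exon 1 exceeded 1000 bases at 34 of 67 coding first-exon peaks for DMSO Pre (50.8%, 39.1 to 62.4), 47 of 144 for DMSO MCE (32.6%, 25.5 to 40.7), 13 of 50 for DMSO Diff (26.0%, 15.9 to 39.6) and 26 of 84 for rhein MCE (31.0%, 22.1 to 41.5). These 120 peaks came from 34 of the 183 genes with coding first-exon peaks. In the annotation 213 of 11935 genes with coding bases in exon 1, or 1.78%, had such an exon. That is a share of genes, while the shares of the lists are of peaks. The longest first exons were 5974 bases in Gm38394, which shares bases with the single-exon gene Zbed6, 5195 in Fat4, 5091 in Pcdh17 and 4791 in Macf1, the cytoskeletal crosslinker. The widest exons also gave repeated peaks, so the values per peak lie above those per gene, most of all in DMSO Pre, where the median per peak was 1390 bases.

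**Figure D2:**
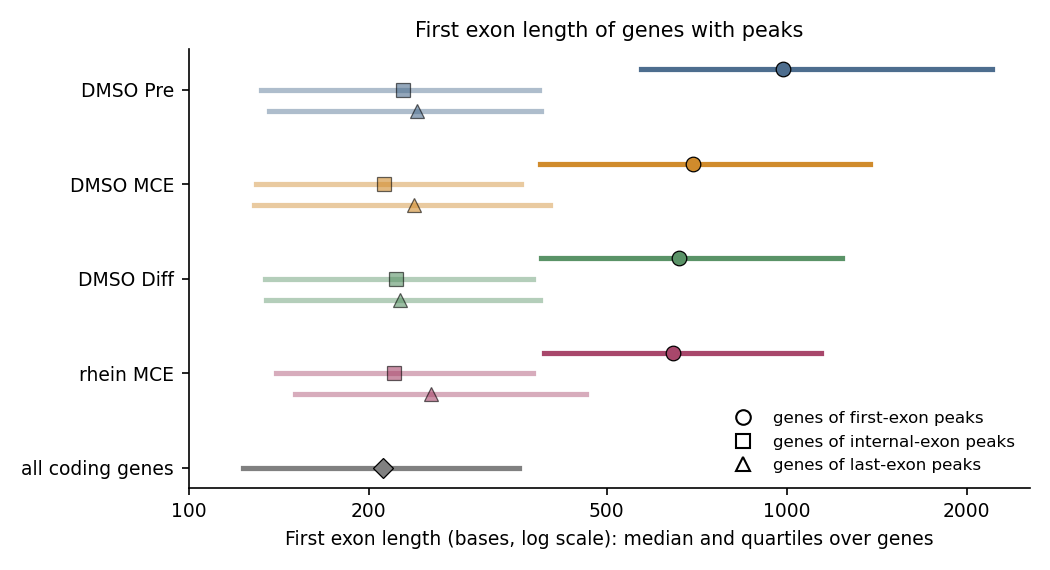
First exon length on a log scale for genes with a coding first-exon peak (circles), an internal-exon peak (squares) or a last-exon peak (triangles) in each list, and for all coding genes (diamond). Symbols are medians and bars quartiles over genes. The circles lie between 645.5 and 987 bases, and all other symbols between 211 and 254.

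Distance from the start codon was known for 300 peaks whose listed transcript had a complete coding sequence and held both peak ends. The midpoint lay in exon 1 for 286 of them and beyond its splice site for 14. The median distance was 585 bases (interval of the median 317 to 1026) over 56 peaks of DMSO Pre, 200 (172 to 337) over 129 of DMSO MCE, 215.5 (121 to 361) over 42 of DMSO Diff and 193 (170 to 231) over 73 of rhein MCE. DMSO Pre thus had the most distant peaks, and its interval overlapped those of DMSO MCE and DMSO Diff but not that of rhein MCE. The nearest were Txn1 at 24 bases for DMSO Diff and Rfc1 at 26 for DMSO MCE, both with the midpoint in exon 2, Tpm3 at 29 for DMSO Pre and Pde10a at 44 for rhein MCE. The farthest were Irs2 at 3819 for rhein MCE and 3469 for DMSO MCE, Irs1 at 3508 for DMSO Pre and Arhgef17 at 2151 for DMSO Diff.

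In all lists the share of peaks within 200 bases of the start codon was above the share of coding bases there. Within 200 bases were 16 of 56 for DMSO Pre (28.6%, 18.4 to 41.5), 64 of 129 for DMSO MCE (49.6%, 41.1 to 58.1), 20 of 42 for DMSO Diff (47.6%, 33.4 to 62.3) and 39 of 73 for rhein MCE (53.4%, 42.1 to 64.4). Of the coding bases of those exons, 14.9%, 23.4%, 22.9% and 25.9% lay within 200 bases. Long exons weigh most in these pooled bases, while a short coding exon 1 has room for near peaks only. Peaks centred beyond exon 1 are also counted. The comparison therefore cannot show whether peaks favour the start codon within an exon. With all peaks centred in coding exon 1 taken, also those listed in the 5′ untranslated region, the share rose in each list. It was 45.0% for DMSO Pre, 60.2% for DMSO MCE, 60.9% for DMSO Diff and 61.1% for rhein MCE, so DMSO Pre stayed lowest. At least 1000 bases away were 22 peaks for DMSO Pre (39.3%, 27.6 to 52.4), 24 for DMSO MCE (18.6%, 12.8 to 26.2), 7 for DMSO Diff (16.7%, 8.32 to 30.6) and 12 for rhein MCE (16.4%, 9.66 to 26.6). The distant peaks of DMSO Pre came from 16 genes, among them Mepce, Ppp1r9b, Irs1, Wdr81, Snx19, Arhgef17, Pcdh7, Pcdh18 and Fat4.

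**Figure D3:**
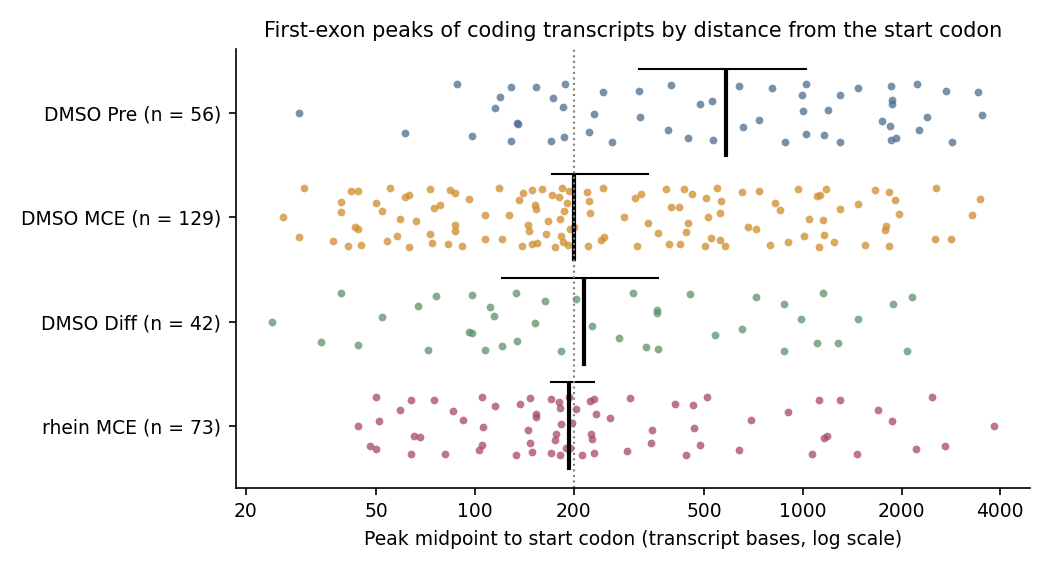
Distance from the start codon to the midpoint of 300 first-exon peaks, in transcript bases on a log scale, with a point per peak, the median as a thick line, the interval of the median as a thin line above it, and a dotted line at 200 bases. The DMSO Pre median is 585 bases, and the other 3 lie between 193 and 215.5.

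First exons were also compared with the rest of the coding sequence on the longest coding transcript that held each peak, so that peaks listed as 5′ untranslated region were included. Exon 1 held 6.36% (5.14 to 7.85) of 1257 coding peaks for DMSO Pre, 8.38% (7.31 to 9.59) of 2279 for DMSO MCE, 5.49% (4.36 to 6.89) of 1257 for DMSO Diff and 8.93% (7.48 to 10.6) of 1265 for rhein MCE. It held 4.85%, 5.49%, 4.44% and 5.35% of the coding bases of those transcripts. In DMSO MCE and rhein MCE the interval lay well above the share of bases, in DMSO Pre slightly, and in DMSO Diff it reached below it. Of these coding peaks in exon 1, the lists place 54, 126, 38 and 73 in a first exon and 18, 53, 25 and 31 in the 5′ untranslated region.

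In rhein MCE, first-exon peaks close to the start codon stood high in the order of scores. The 39 within 200 bases had a median score of 16.4, against 8.01 for the 34 farther away. In the DMSO lists the medians within 200 bases were 7.46, 7.32 and 7.91 and those farther away 6.81, 7.34 and 7.99. Among the 10% of each list with the highest scores were 14 of the 39 for rhein MCE (35.9%, 22.7 to 51.6), 1 of 16 for DMSO Pre (6.25%, 1.11 to 28.3), 5 of 64 for DMSO MCE (7.81%, 3.38 to 17.0) and 2 of 20 for DMSO Diff (10.0%, 2.79 to 30.1). For these near peaks the intervals of rhein MCE and DMSO MCE do not overlap. Of the first-exon peaks farther away, 6 of 34 in rhein MCE were among the highest 10% (17.65%, 8.35 to 33.5). That interval overlaps the one of the near peaks. In DMSO Pre, DMSO MCE and DMSO Diff the share farther away was 5.0%, 9.23% and 0%. Peaks listed in the 5′ untranslated region showed the same order, with 29.0% (24.3 to 34.2) of 321 among the highest 10% in rhein MCE and 12.8% (10.3 to 15.9) of 537 in DMSO MCE. Internal-exon peaks did not, with 5.03% and 7.12%.

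Peaks present in both lists labelled MCE were compared by their place in each list. Of all 1644 rhein MCE peaks with a DMSO MCE partner, 404 were placed higher in the rhein list than the partner in its own list (24.6%, 22.6 to 26.7). Of first-exon peaks within 200 bases of the start codon it was 12 of 21 (57.1%, 36.5 to 75.5), and of those farther away 3 of 18 (16.7%, 5.84 to 39.2), intervals that overlap each other. Peaks listed in the 5′ untranslated region were like the near ones, with 96 of 190 (50.5%, 43.48 to 57.55). Internal-exon peaks gave 64 of 331 (19.3%). The DMSO MCE list is the longer, and reduced to the length of the rhein list it gave 77.8% near the start codon, 43.8% farther away and 36.9% over all shared peaks. The 12 included Ybx1, Trim28, Rtn4, Pabpn1, Arid1a, Ppp1r14b, Glrx5, Pbx2, Alkbh5 and Lamc1. Rtn4, a membrane protein that shapes the endoplasmic reticulum, went from a score of 13.6 to 37.9, Arid1a, a subunit of the BAF chromatin remodelling complex, from 8.38 to 30.6, and Glrx5, a mitochondrial glutaredoxin of iron-sulfur cluster assembly, from 6.67 to 20.6. With 1 list per treatment, an effect of rhein cannot be told apart from a difference between the libraries, nor from a difference of stage, since the stage of the rhein list is not certain.

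**Figure D4:**
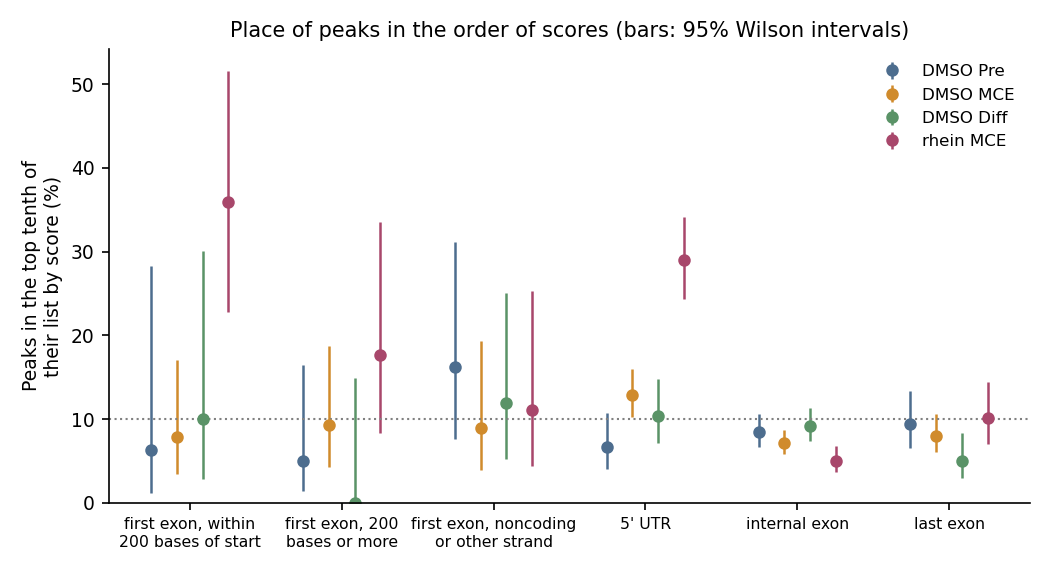
Share of peaks among the 10% of their list with the highest scores, in percent, by place of the peak and by list, with 95% Wilson intervals and a dotted line at 10%. The rhein MCE points for first-exon peaks within 200 bases of the start codon (35.9%) and for 5′ UTR peaks (29.0%) lie above those of the DMSO lists. The rhein MCE point for first-exon peaks farther away (17.65%) does so too, with an interval that overlaps the one within 200 bases.

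Recurrence of first-exon peaks, taken as an overlap of at least 1 base on the same strand with any peak of another list, was near or below that of all peaks. At least 1 other list overlapped 55 of 104 in DMSO Pre (52.9%, 43.4 to 62.2), where the share over all peaks was 61.4%. It was 81 of 200 for DMSO MCE (40.5%, 33.9 to 47.4) beside 47.3% of all peaks, 57 of 92 for DMSO Diff (62.0%, 51.8 to 71.2) beside 63.7%, and 75 of 120 for rhein MCE (62.5%, 53.6 to 70.7) beside 67.9%. The share of all peaks lay inside the interval in each list. Internal-exon peaks recurred at 49.8%, 41.5%, 53.5% and 57.1% and last-exon peaks at 64.6%, 49.1%, 73.2% and 72.6%, and the first-exon value lay nearer to the internal one in each list.

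All 3 other lists overlapped 14 first-exon peaks of DMSO Pre (13.5%, 8.19 to 21.3, beside 19.7% of all peaks), 16 of DMSO MCE (8.0%, beside 11.1%), 19 of DMSO Diff (20.7%, beside 19.2%) and 17 of rhein MCE (14.2%, beside 17.9%). DMSO MCE overlapped 37 of DMSO Pre (35.6%, beside 45.1%), 38 of DMSO Diff (41.3%, beside 46.1%) and 63 of rhein MCE (52.5%, beside 53.6%), and rhein MCE overlapped 65 of DMSO MCE (32.5%, beside 32.3%). Most partners in DMSO MCE were first-exon peaks themselves, 36 of the 37 for DMSO Pre and 57 of the 63 for rhein MCE. For DMSO Diff it was 29 of the 38, and 8 were listed in the 5′ untranslated region.

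**Figure D5:**
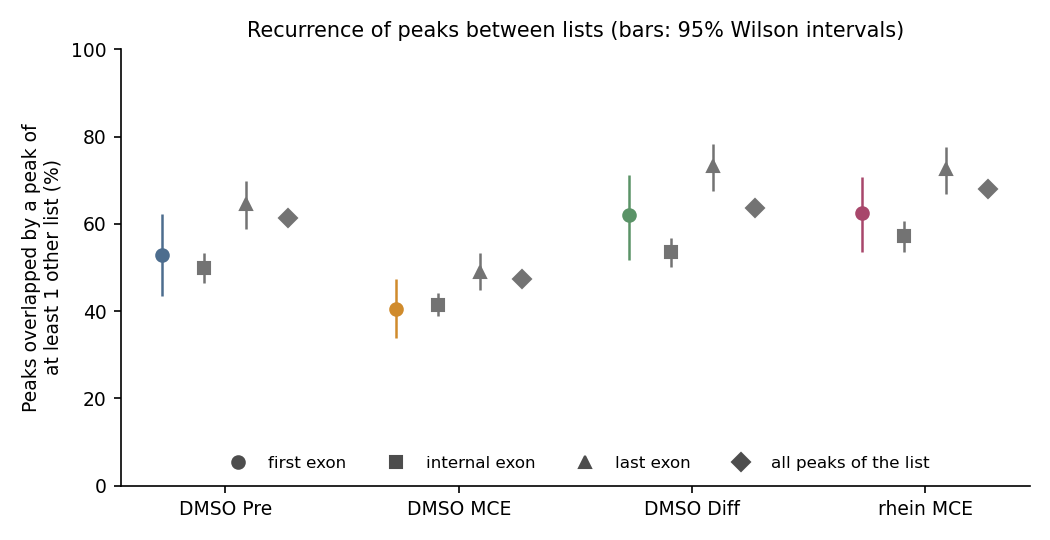
Share of peaks overlapped by a peak of at least 1 other list, in percent, for first-exon peaks (coloured circles), internal-exon peaks (squares), last-exon peaks (triangles) and all peaks of the list (diamonds), with 95% Wilson intervals. First-exon peaks range from 40.5% in DMSO MCE to 62.5% in rhein MCE.

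Merged across lists, the 516 peaks formed 360 loci, of which 271 had first-exon peaks in 1 list, 51 in 2, 24 in 3 and 14 in all 4. By gene, 200 were in 1 list, 53 in 2, 22 in 3 and 15 in all 4. A peak listed on the other strand was counted under the gene of its own strand, such as Nav1. No matching counts over all peaks or genes are given here, so these numbers are not read as a trait of first-exon peaks. Genes with first-exon peaks in 1 list only numbered 35 of 86 for DMSO Pre (40.7%), 94 of 165 for DMSO MCE (57.0%), 35 of 79 for DMSO Diff (44.3%) and 36 of 102 for rhein MCE (35.3%). Of all genes with a peak in these lists, 18.4%, 35.0%, 15.3% and 13.4% had peaks in that list only. This count takes peaks anywhere in the gene and the former takes first-exon peaks only, so their levels are not comparable. The longest list, DMSO MCE, had the highest share in both counts. Besides, 24 of the 53 genes in 2 lists were shared by DMSO MCE and rhein MCE, again without a matching count over all genes. Apart from the genes described above, those in 3 lists included Hnrnpu and Hnrnpul2, which package nuclear RNA, Snx19, a sorting nexin, Adamts1, a metalloprotease of the matrix, Furin, a proprotein convertase, Arih1, a ubiquitin ligase, Irf2bp2, a corepressor, Tnrc18 and Wnk1, a kinase of ion transport. Gm13936, 4930402F11Rik, Gm44123 and Gm28036 were also in 3 lists. Snx19 kept the same span in DMSO Pre, DMSO MCE and rhein MCE, with scores of 11.6, 9.98 and 5.25.

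In rhein MCE, 45 first-exon peaks had no overlapping peak in any DMSO list. A DMSO peak overlapped the other 75 of 120 (62.5%, beside 67.9% of all rhein MCE peaks). The 45 lay in 43 genes, of which 12 had a first-exon peak at another place in a DMSO list. On coding transcripts were 31 of the 45. Of the 28 with a known distance, 18 lay within 200 bases of the start codon, and 10 of the 45 were among the highest 10% of the list, close to the 26 of all 120 (21.7%). Peaks within 200 bases lacked a DMSO MCE partner in 18 of 39 cases (46.2%) and those farther away in 16 of 34 (47.1%). Of all 3069 rhein MCE peaks, 1644 had such a partner (53.6%). Mtrex, the RNA helicase that feeds the nuclear exosome, had the highest score, 75.5, for a peak that ends at the base before a DMSO MCE peak of score 5.02. Oaf had 55.6, Bace1, the beta-secretase, 21.9, Lonp1, a mitochondrial protease, 21.6, Pfn1, the actin-binding profilin, 16.7 and Scd1, the desaturase of fatty acid synthesis, 5.94. DMSO MCE had its own Pfn1 first-exon peak of 8.86 at other bases.

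In all 4 lists the interval of the share of first-exon peaks with GGAC held the share of internal-exon peaks, while the interval for DRACH lay below it in 3. DRACH stands for A, G or T, then A or G, then AC, then A, C or T, so every GGAC that is not followed by G is also a DRACH, and only the strand of the transcript was searched. GGAC was present in 61.8% (52.1 to 70.6) of 102 placed peaks for DMSO Pre, 50.3% (43.3 to 57.2) of 195 for DMSO MCE, 40.7% (31.1 to 50.9) of 91 for DMSO Diff and 48.7% (39.9 to 57.7) of 117 for rhein MCE. In internal-exon peaks it was present in 53.6%, 51.7%, 47.7% and 52.1%. DRACH was present in 88.2% (80.6 to 93.1), 70.8% (64.0 to 76.7), 70.3% (60.3 to 78.7) and 70.9% (62.2 to 78.4) of first-exon peaks and in 89.2%, 88.2%, 86.4% and 88.6% of internal-exon peaks. The list whose interval held the internal share was DMSO Pre. First-exon peaks were richer in G and C, with 56.5%, 61.8%, 56.9% and 61.0% against 52.2%, 51.6%, 49.9% and 52.3%, and shorter in DMSO MCE and rhein MCE, with a median exonic length of 75 and 100 bases against 125 over all peaks of either list. In DMSO Pre and DMSO Diff the medians equalled those of all peaks, 125 and 100. The part of base composition and length in the motif shares was not tested.

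Coding first-exon peaks held GGAC in 72.3% (60.4 to 81.7) of 65 for DMSO Pre, 52.4% of 143 for DMSO MCE, 51.0% of 49 for DMSO Diff and 53.1% of 81 for rhein MCE, and the noncoding ones in 43.2%, 44.2%, 28.6% and 38.9%. Peaks with room for comparison were set beside all windows of the same length in the coding bases of the same first exons. GGAC was in 71.9% (59.2 to 81.9) of 57 peaks and 56.4% of windows in DMSO Pre, where the window share lay below the interval, and in 52.3% and 47.5%, 52.4% and 48.5%, and 50.7% and 50.5% in DMSO MCE, DMSO Diff and rhein MCE, where the window share fell inside the interval. Windows of 100 bases over the coding first exons of 5932 genes held GGAC in 44.2%.

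Over the 4 lists together, GGAC was in 67 of the 139 peaks within 200 bases of the start codon (48.2%, 40.1 to 56.4) and in 100 of the 161 farther away (62.1%, 54.4 to 69.2), with G and C at 66.7% and 60.1% and median lengths of 75 and 125 bases. In windows of 100 bases around the midpoint the shares were 55.4% and 64.0%, and their intervals overlapped. In DMSO Pre the order was the other way round, with 13 of 16 near and 27 of 40 farther away. Peaks that overlap between lists enter these counts more than once.

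The highest scores went with few GGAC. Of the 18 first-exon peaks with a score above 33.2, which corresponds to an adjusted p of 1e-10, 2 held GGAC, those of Rtn4 and the noncoding AC113961.1 in rhein MCE, and 9 held DRACH. The 18 came from 13 genes, 10 peaks on coding and 8 on noncoding transcripts, and rhein MCE supplied 10 of them, the 3 DMSO lists 8. The same span entered 4 times for Otx2os1 and 3 times for Pde10a. Most of the 18 were only 50 or 75 bases long, and the part of length in this share was not tested. The peaks of Ybx1, Trim28, Yy1 and Irs2 in this set were 74.9% to 82.0% G or C. A missing GGAC says only that these letters are not in the peak.

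Peaks on both strands of the same stretch touched some noncoding members. Gm4793, a noncoding gene antisense to the navigator gene Nav1, had a peak of 200 or 225 bases on the plus strand in all 4 lists, with scores of 8.52, 8.83, 10.3 and 6.44, and each list also had a minus-strand peak over nearly the same bases in Nav1, with 8.20, 7.83, 10.7 and 7.05. A peak of the same list on the other strand overlapped 5 of 104 first-exon peaks for DMSO Pre, 26 of 200 for DMSO MCE (13.0%, 9.03 to 18.4), 9 of 92 for DMSO Diff and 11 of 120 for rhein MCE. Over all peaks of the lists the shares were 4.36%, 5.42%, 4.65% and 6.35%. Among coding first-exon peaks there were 0, 6, 1 and 1 of these, so most lay on noncoding or other-strand transcripts. The sources used here do not state that strand was used in peak calling, so reads of a gene and of its antisense partner cannot be told apart at these peaks.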

How the data were processed

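Per the labels and the methods of the study, total RNA of 3T3-L1 cells was fragmented, immunoprecipitated with an m6A antibody and sequenced beside input RNA. The authors trimmed reads with Trim Galore 0.6.5, aligned them with HISAT2 2.1.0 to mm10 (GRCm38), removed duplicates with Picard 2.23.5, and kept well-mapped reads with SAMtools 1.9. Peak calling used exomePeak2 with its defaults, and ChIPseeker 1.26 assigned each peak to a transcript. The deposited value per peak was treated as a score, although its header names a log2 fold change. Which libraries entered each list was not stated, and depth was not given in the files, so it is unknown.

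First-exon peaks were read from the deposited annotation. Each was placed on its listed GENCODE M21 transcript where both ends lay in exons of the same strand, and otherwise on the longest transcript that held them. Of the 516, 445 were placed on the listed transcript and 505 on some transcript. A span from start to end can cross introns, and 78 spans exceeded 1000 bases. The authors' gene symbol was not used, since it differed from the listed transcript's gene for 15.5% to 22.8% of first-exon peaks. Distance ran from the first base of the start codon to the peak midpoint in transcript bases. Gene classes came from words in RefSeq gene names. Named genes were those in at least 3 lists, the 5 of highest score per list, members of the gene lists and the extremes of length and distance. Further genes were named among rhein MCE peaks after their values were seen. The members, gene lists and tests were chosen with earlier results of these data known. The placement and overlap steps were tested on simulated data, where 500 of 500 distances and 200 of 200 overlaps were recovered. The simulated peaks all lay within exon 1, so spans that cross introns were not tested. Python 3.11.15, pandas 2.3.3, NumPy 2.4.6, SciPy 1.17.1 and Matplotlib 3.10.9 were used. Alternatives were the score threshold, overlap, list length, transcript, point of the peak and counting by gene.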

Additional observations from a re-analysis of the deposited data

Results flagged for a closer look

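The number of first-exon peaks differed in opposite directions between rhein and DMSO at the 2 stages. The rhein list held 80 fewer than DMSO at the MCE stage, a difference of -80, and 28 more at the differentiation stage. Gene numbers moved likewise, by -63 at the MCE stage and by 23 at the differentiation stage. The whole lists differed in the same directions, with 3069 peaks against 5128 at the MCE stage and 3071 against 2944 at the differentiation stage, and first-exon peaks were 3.91% under rhein and 3.90% under DMSO at the former, 3.91% and 3.13% at the latter. The difference between stages was not tested, since each condition had 1 list. It rests on DMSO alone, because both rhein lists hold the same 120 peaks, while the DMSO lists held 200 and 92.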

How the results depend on the processing

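Of 100 values recomputed under an alternative, 80 stayed within 1.5 times the count or within the interval of the value and 20 did not. Past an adjusted p of 1e-10 the number of first-exon peaks fell to 2, 2, 4 and 10 in DMSO Pre, DMSO MCE, DMSO Diff and rhein MCE, their share of Exon peaks was 5.71% in DMSO Pre, 3.92% in DMSO MCE and 14.1% in rhein MCE, and the share with GGAC was 0 in each DMSO list and 20.0% in rhein MCE, all over these few peaks. Past 0.01, DMSO Pre had 69 and the DMSO MCE share was 10.0%. With lists of equal length, 50.9% of DMSO MCE peaks recurred. Measured at the 5′ end, the median distance was 160 bases in DMSO MCE and 158 in rhein MCE. With all peaks centred in coding exon 1, 45.0% in DMSO Pre and 60.2% in DMSO MCE lay within 200 bases. With the DMSO MCE list reduced to the length of rhein MCE, 77.8% of shared peaks within 200 bases were placed higher under rhein, 43.8% of those farther away and 36.9% of all. The cause of the other shifts was not tested. The alternatives for the share within 200 bases and for the placing of shared peaks, and the distances by gene, were chosen after seeing the data. No paired analysis was possible because each condition had 1 list and no test was made. The lists give no depth, so peaks below the threshold in one list cannot be called absent.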
